A study of Mus musculus with 17 samples.

Results

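Tead1, Tead2, Tead3 and Tead4 encode the TEAD transcription factors, and Wwtr1, Lats1, Lats2, Nf2, Amotl2 and Ajuba encode proteins of the Hippo pathway that act above or beside them. These 10 genes were chosen by name, with earlier results of the same data known. All 10 were measured among the 19938 genes of a mouse mammary tumour study. Each was read from a probe set that carries its symbol alone, and where several did, from the one with the highest mean. RNA of 12 tumours and of 5 pieces of normal gland had been hybridised to Mouse Gene 1.0 ST arrays of Affymetrix, with 1 array for each sample. Values are log2 intensities after RMA, so a difference of 1 is a 2-fold difference. A level of one gene cannot be set against that of another on this scale, since probes differ in brightness.

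Of the tumours, 9 had lost both Rb and p53 (called Rb/p53 tumours here) and 3 had lost p53 (called p53 tumours). Cre recombinase, which cuts out the floxed alleles, was driven by the promoter of mouse mammary tumour virus (MMTV-Cre) in 7 Rb/p53 tumours and in all 3 p53 tumours. The other 2 Rb/p53 tumours came from an adenovirus that carries Cre under a cytomegalovirus promoter (Ad-Cre), and both are labelled as transplants. Of the 7 MMTV-Cre Rb/p53 tumours, 5 are labelled as transplants, 1 as from a nulliparous mouse (replicate 1) and 1 as from a parous mouse (replicate 2). The normal tissue was taken from Rb/p53 model animals (5 samples), and all 17 samples share a mixed strain background. The tumours are described as independent. The normal samples carry separate IDs but are not said to come from separate animals, so p-values reflect the variation among samples, which may be technical. In p53 replicate 3 the title gives the double deletion, while its source name, description and tissue give p53 deletion, by which it was placed.

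The Hippo pathway is a kinase cascade that restrains tissue growth. Merlin, the product of Nf2, acts near the membrane to bring about activation of the kinases LATS1 and LATS2, which phosphorylate the co-activators YAP (Yap1) and TAZ (Wwtr1) and so hold them outside the nucleus. Unphosphorylated YAP and TAZ enter the nucleus and bind TEAD factors, which contact DNA but need such a partner to activate genes, among them Ankrd1, Ccn1 and Ccn2. AMOTL2, of the angiomotin family, binds YAP and helps LATS act, whereas AJUBA, a LIM-domain protein, binds LATS and restrains it. Lats2, Amotl2 and Ajuba are themselves among the genes that YAP and TAZ are known to switch on. Much of this control works through phosphorylation and location of proteins, which RNA levels do not show.

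In the mouse genome (GRCm38.p6) no 2 of the 10 genes adjoin. Tead1 spans chr7:112679356-112906784 and Tead2 chr7:45215792-45233468, while Tead3 lies at chr17:28331671-28350805 and Tead4 at chr6:128227143-128300813. Wwtr1 lies at chr3:57455644-57575910, Lats1 at chr10:7681200-7716461, Lats2 at chr14:57689662-57746212, Nf2 at chr11:4757639-4849544 and Ajuba at chr14:54567469-54577661. Amotl2 shares a chromosome with Yap1, but Amotl2 lies at chr9:102717091-102733418 and Yap1 far from it, at chr9:7931999-8004638.

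TEAD factors recognise the letters GGAATG, or CATTCC on the opposite strand. These letters were searched on both strands in a set of promoter windows (GRCm38.p6), each the 250 bases before a gene start, whether outermost or internal. The set did not hold every annotated start. Tead1 and Tead4 had no window, and Amotl2, Lats1 and Lats2 had none at their outermost annotated start. The match occurred in 4153 of 32851 such windows (12.6%) and in at least 1 window of 3880 of 27025 genes (14.4%). Of the 10 genes, 8 had a window, and 4 of these (Wwtr1, Amotl2, Ajuba and Tead3) held the letters. Among 23 known YAP and TAZ target genes, 16 had a window and 7 of these held them. A match is a description of these bases and no binding was measured. The windows of Amotl2 and Ajuba are shown because these genes had the steepest slopes on Yap1, that of Wwtr1 because it encodes the other co-activator, and that of Ankrd1 because it differed most from normal tissue among the targets. Capitals mark the match, and each runs 5′ to 3′ on the strand of its gene.
Amotl2: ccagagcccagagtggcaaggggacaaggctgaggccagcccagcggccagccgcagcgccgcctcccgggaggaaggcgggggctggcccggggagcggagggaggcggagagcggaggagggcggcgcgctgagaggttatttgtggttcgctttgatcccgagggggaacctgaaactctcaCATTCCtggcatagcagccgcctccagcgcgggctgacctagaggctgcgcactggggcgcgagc
Ajuba: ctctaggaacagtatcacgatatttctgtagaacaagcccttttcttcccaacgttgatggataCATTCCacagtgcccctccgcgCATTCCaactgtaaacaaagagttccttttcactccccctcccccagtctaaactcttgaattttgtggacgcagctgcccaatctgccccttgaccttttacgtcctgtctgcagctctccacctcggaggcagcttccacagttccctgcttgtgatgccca
Wwtr1: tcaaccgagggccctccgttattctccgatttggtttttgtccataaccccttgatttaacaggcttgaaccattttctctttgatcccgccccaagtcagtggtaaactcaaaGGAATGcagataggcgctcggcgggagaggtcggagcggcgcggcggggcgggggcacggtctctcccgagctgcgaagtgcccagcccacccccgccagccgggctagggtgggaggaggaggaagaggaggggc
Ankrd1: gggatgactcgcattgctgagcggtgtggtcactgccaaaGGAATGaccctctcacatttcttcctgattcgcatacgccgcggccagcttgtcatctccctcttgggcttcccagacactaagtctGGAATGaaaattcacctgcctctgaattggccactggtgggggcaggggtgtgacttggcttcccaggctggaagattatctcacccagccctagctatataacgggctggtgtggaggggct
The Amotl2 window lies at chr9:102717554-102717803 on the plus strand, and its match begins 65 bases before the start that this window precedes. That start lies 713 bases inside the annotated gene, so the window is within Amotl2 as annotated and not upstream of its outermost start. The Ajuba window lies at chr14:54577662-54577911 on the minus strand, with matches that begin 186 and 164 bases before the start. The Wwtr1 window lies at chr3:57575911-57576160 on the minus strand, with a match 136 bases before the start. The Ankrd1 window lies at chr19:36119845-36120094 on the minus strand, with matches 210 and 123 bases before the start.

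The array of p53 replicate 2 stood apart and bears on every result with p53 tumours. It correlated at 0.888 to 0.915 with the other 16 arrays, which correlated with each other at 0.929 or more. The interquartile range of its values was 2.39, against 2.91 to 3.18 on the others. It was the lowest of the 12 tumours in 8 of the 10 genes and the lowest of all 17 samples in 7. No trait of the 10 genes is read from these counts, since the share of all genes lowest on this array was not counted. Its mean macrophage marker level was 12.48, against 10.52 to 11.89 in the other tumours, and its mean endothelial marker level was 8.25, against 9.17 to 9.85. It was also the tumour highest in T and NK cell markers (7.76) and lowest in fibroblast markers. The 25th percentile of all probe sets on this array was 6.80, the highest of any array, where the lowest was 6.37. The marker means are not corrected for this, and its part in the T and NK marker level was not tested. Results are therefore given with and without this array.

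Tissue makeup also differed between tumours and normal tissue. The mean of 15 measured of 17 adipocyte markers was 7.54 to 8.75 in Rb/p53 tumours and 7.54 to 8.51 in p53 tumours, against 12.27 to 12.81 in normal tissue. The mean of 20 measured of 22 luminal epithelial markers was 8.0 to 9.47 in Rb/p53 tumours and 8.08 to 8.75 in p53 tumours, against 10.37 to 10.48 in normal tissue. The mean of 14 measured of 14 basal and myoepithelial markers was 8.17 to 9.04 in Rb/p53 tumours and 8.63 to 8.95 in p53 tumours, against 10.06 to 10.39 in normal tissue. All 3 means were lower in every tumour than in any normal sample. Macrophage markers (14 of 14) averaged 10.52 to 11.65 in Rb/p53 tumours and 11.12 to 12.48 in p53 tumours, against 10.25 to 10.67 in normal tissue. Fibroblast markers (16 of 16) averaged 10.12 to 11.29 in Rb/p53 tumours and at most 11.10 in p53 tumours, against 11.17 to 11.43 in normal tissue. Endothelial markers (14 of 14) averaged 9.17 to 9.85 in Rb/p53 tumours and 8.25 to 9.56 in p53 tumours, against 9.76 to 10.18 in normal tissue. In B and plasma cell markers (10 of 11 measured) tumours were below normal samples by a narrow margin. These averaged 6.57 to 7.23 in Rb/p53 tumours and 6.97 to 7.26 in p53 tumours, against 7.28 to 7.41 in normal tissue. Of these markers, 3 in Rb/p53 tumours and 2 in normal tissue were below the 25th percentile of the array in every sample. Rb/p53 tumours overlapped normal tissue in macrophage, fibroblast and endothelial markers. Skeletal muscle markers (15 of 15) averaged 6.98 to 7.56 in Rb/p53 tumours and 7.14 to 7.29 in p53 tumours. The normal samples were uneven in them, with 9.49, 9.59 and 8.47 in normal replicates 1, 2 and 5. Normal replicates 3 and 4 lay within the range of the Rb/p53 tumours. The part of these markers in the differences below was not tested. In these bulk samples, fewer cells of a type and less RNA per cell cannot be told apart.

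Rb/p53 tumours were set against normal tissue first. Tead1, Tead4 and Ajuba rose in Rb/p53 tumours, by less than 1 log2 unit each, and none of the 10 genes fell. The 3 calls of 10 stand beside 27.6% of all genes called in either direction with 14.2% higher and 13.4% lower, by limma with an adjusted p below 0.05 over 19938 genes. Higher genes were 51.4% of those called, and 42.6% under cyclic loess normalisation. The share of the 10 genes called in either direction was near that of all genes.

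Tead1, best known for its role in heart muscle development, ranged from 10.85 to 11.62 in Rb/p53 tumours (median 11.19). It read 11.03, 8.48 and 10.94 in p53 tumours and 10.23, 10.18, 9.99, 10.52 and 10.51 in normal tissue. Every Rb/p53 tumour lay above every normal sample. Tead1 averaged 11.17 ± 0.25 in Rb/p53 tumours (SD, n = 9) and 10.29 ± 0.23 in normal tissue (SD, n = 5), a limma log2 difference of 0.88 ± 0.31 (SE) with an adjusted p of 0.0406. Without p53 replicate 2, which enters this test through the shared estimate of spread, the adjusted p was 6.23e-05 at the same difference. A second Tead1 probe set gave 0.81 ± 0.32, with an adjusted limma p of 0.0685. The call was also lost when any 1 of the normal arrays was left out, at adjusted limma p values up to 0.0975.

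Tead4, needed in the mouse embryo for the trophectoderm, ranged from 8.10 to 9.38 in Rb/p53 tumours (median 8.70). It read 8.69, 7.88 and 7.99 in p53 tumours and 8.07, 7.86, 7.82, 8.01 and 7.94 in normal tissue. The lowest Rb/p53 tumour lay just above the highest normal sample, so these groups did not overlap. Tead4 averaged 8.78 ± 0.45 in Rb/p53 tumours (SD, n = 9) and 7.94 ± 0.10 in normal tissue (SD, n = 5). The limma log2 difference was 0.84 ± 0.20 (SE), with an adjusted p of 0.00495, and this call held under each alternative that was run. Of the 10 genes, 2 were higher in Rb/p53 tumours without overlap (Tead1 and Tead4), where 7.9% of all genes were, and 0 were lower without overlap, where 8.31% of all genes were.

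Tead2, which is abundant in early embryos, ranged from 9.80 to 10.67 in Rb/p53 tumours (median 10.34). It read 10.35, 8.14 and 10.59 in p53 tumours and 9.84, 9.68, 9.58, 10.54 and 10.47 in normal tissue. The normal samples covered most of the range of the Rb/p53 tumours, and the difference of 0.27 ± 0.32 did not pass (limma adjusted p = 0.616). Tead3, the remaining factor, ranged from 8.05 to 9.53 in Rb/p53 tumours (median 8.77). It read 8.38, 7.71 and 8.50 in p53 tumours and 9.06, 8.92, 8.81, 8.83 and 8.80 in normal tissue. Rb/p53 tumours lay on both sides of the narrow band of normal samples, with a difference of -0.14 ± 0.20 (limma adjusted p = 0.691).

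Wwtr1, which encodes the co-activator TAZ, ranged from 10.42 to 12.21 in Rb/p53 tumours (median 11.17). It read 10.89, 8.84 and 10.42 in p53 tumours and 10.50, 10.51, 10.59, 10.70 and 10.25 in normal tissue. Of the Rb/p53 tumours, 7 were above all normal samples and 2 lay within their range. The mean was 11.14 ± 0.55 in Rb/p53 tumours (SD, n = 9) and 10.51 ± 0.17 in normal tissue (SD, n = 5), a difference of 0.63 ± 0.30 that did not pass (limma adjusted p = 0.138). Without p53 replicate 2 the same difference had a smaller error, 0.63 ± 0.23, and passed at an adjusted limma p of 0.0458. That fit called 4 of the 10 genes higher, where it called 18.4% of all genes higher.

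The kinases and merlin differed little. Lats1 ranged from 10.05 to 10.88 in Rb/p53 tumours (median 10.53), read 10.86, 9.86 and 10.94 in p53 tumours, and read 10.52, 10.58, 10.46, 10.60 and 10.58 in normal tissue. The normal samples thus lay in the middle of the tumours, with a difference of -0.03 ± 0.17 between Rb/p53 tumours and normal tissue (limma adjusted p = 0.929). Lats2, the other kinase, ranged from 9.32 to 10.38 in Rb/p53 tumours (median 9.71), with 9.28, 9.70 and 9.38 in p53 tumours and 9.67, 9.56, 9.40, 9.47 and 9.34 in normal tissue. Its difference of 0.29 ± 0.14 did not pass (limma adjusted p = 0.147). Nf2 ranged from 9.55 to 10.18 in Rb/p53 tumours (median 9.82), with 9.43, 8.99 and 9.73 in p53 tumours and 9.69, 9.85, 9.65, 9.96 and 9.97 in normal tissue. The Nf2 groups of Rb/p53 tumours and normal tissue overlapped widely, with a difference of -0.01 ± 0.12 (limma adjusted p = 0.982).

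Ajuba ranged from 8.39 to 10.31 in Rb/p53 tumours (median 9.04). It read 9.13, 7.27 and 8.86 in p53 tumours and 8.33, 8.51, 8.29, 8.25 and 8.31 in normal tissue. All Rb/p53 tumours but 1 were above the highest normal sample. Ajuba averaged 9.20 ± 0.60 in Rb/p53 tumours (SD, n = 9) and 8.34 ± 0.10 in normal tissue (SD, n = 5), a difference of 0.87 ± 0.31 with an adjusted limma p of 0.0449. Leaving out any 1 normal array ended this call too, as did leaving out MMTV-Cre replicate 1 (0.73), MMTV-Cre replicate 2 (0.82) or transplant replicate 5 (0.79). Amotl2 ranged from 8.37 to 10.45 in Rb/p53 tumours (median 9.01), with 9.0, 8.55 and 9.18 in p53 tumours and 9.57, 9.75, 9.52, 9.30 and 9.10 in normal tissue. The Rb/p53 tumours reached both above and below the normal samples, with a difference of -0.21 ± 0.29 (limma adjusted p = 0.67). Amotl2 had the widest spread of the 10 genes among Rb/p53 tumours, with an SD of 0.69.

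**Figure D1:**
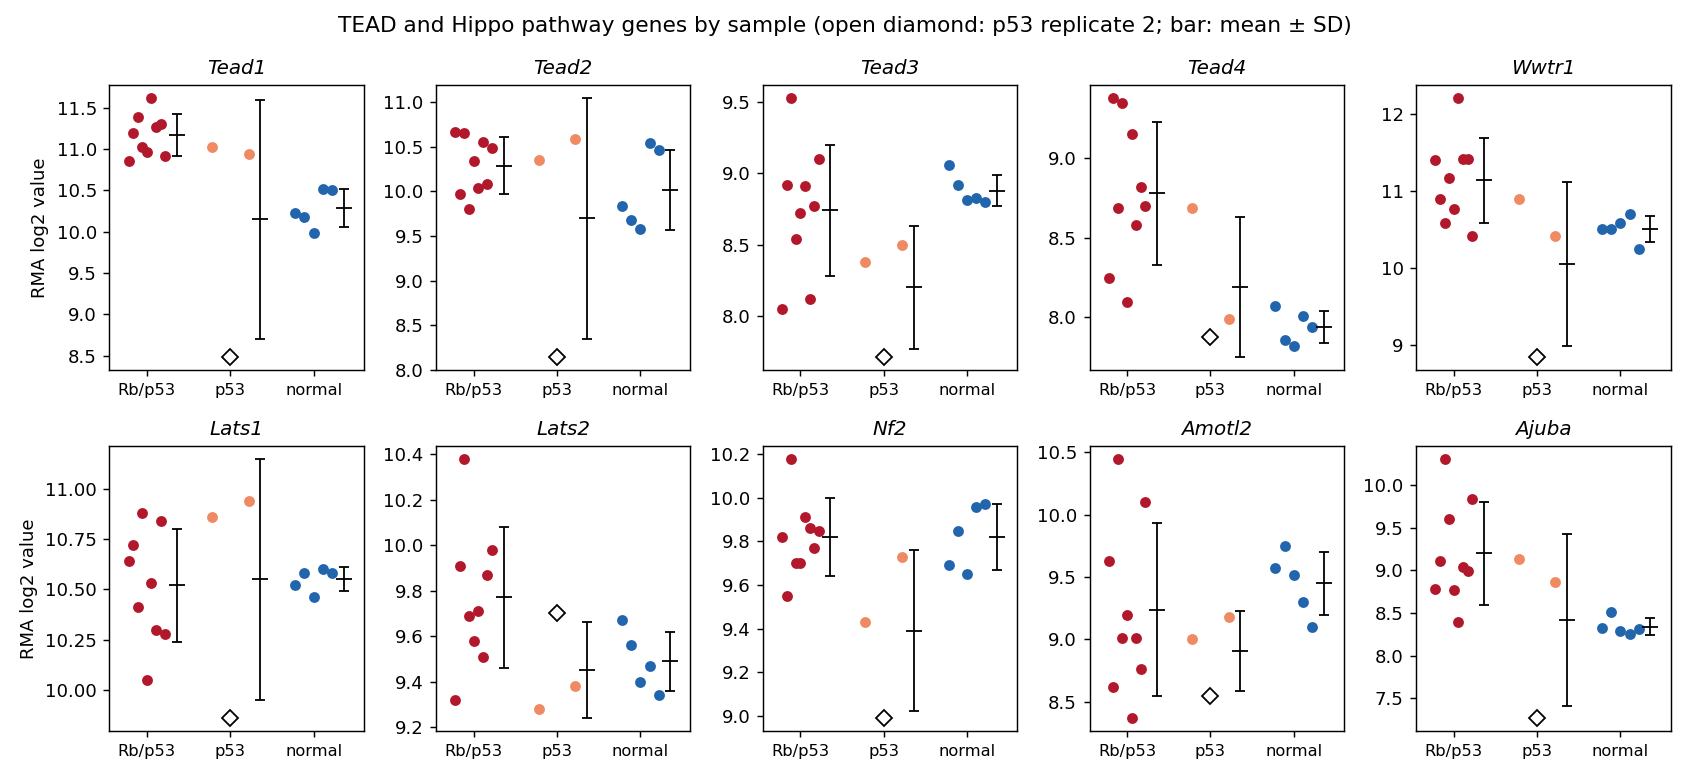
RMA log2 values of the 10 genes (vertical axis, a scale of its own in each panel) in Rb/p53 tumours, p53 tumours and normal tissue, each point 1 sample and each bar the group mean ± SD. Tead1 and Tead4 are higher in all 9 Rb/p53 tumours than in the 5 normal samples. The array of p53 replicate 2, the open diamond, is the lowest tumour in 8 of the 10 panels, a count that was not made over all genes.

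In the comparison of p53 tumours with normal tissue, which uses the same normal samples, 0 of the 10 genes passed, beside 20.4% of all genes called by limma. At an unadjusted limma p below 0.05 there were 2 of the 10, Tead3 and Nf2, beside 7063 of all 19938 genes. Tead3 averaged 8.20 ± 0.43 in p53 tumours (SD, n = 3) and 8.88 ± 0.11 in normal tissue (SD, n = 5), a difference of -0.68 ± 0.27 (limma adjusted p = 0.0803). All 3 p53 tumours lay below all normal samples in Tead3, as did those tumours in 13.5% of all genes, and none of the 10 was higher without overlap, where 9.87% of all genes were. Nf2 averaged 9.39 ± 0.37 in p53 tumours (SD, n = 3) and 9.82 ± 0.15 in normal tissue (SD, n = 5), a difference of -0.44 ± 0.15 (limma adjusted p = 0.0529).

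Several of these values turned with p53 replicate 2. Tead1 averaged 10.15 ± 1.45 in p53 tumours (SD, n = 3), with a difference of -0.14 ± 0.40 from normal tissue (limma adjusted p = 0.823). Without replicate 2 the Tead1 difference was 0.70 ± 0.19, and Tead1 then rose in p53 tumours (limma adjusted p = 0.0157). It was the single call of the 10 genes in that fit, where 21.2% of all genes were called and 10.4% were called higher. Tead2 had a difference of -0.33 ± 0.42 with all 3 p53 tumours and 0.45 ± 0.28 without replicate 2. Wwtr1 had -0.46 ± 0.40 with all 3 and 0.15 ± 0.35 without replicate 2. Neither passed in either fit. The other genes had differences of 0.24 ± 0.26 in Tead4, 0.00 ± 0.22 in Lats1, -0.03 ± 0.18 in Lats2, -0.54 ± 0.38 in Amotl2 and 0.08 ± 0.40 in Ajuba with all 3 p53 tumours. None of these passed, nor did they without replicate 2, where Lats1 had 0.35 ± 0.18 and Ajuba 0.66 ± 0.37. The Tead3 difference became -0.44 ± 0.29 (limma adjusted p = 0.334) and the Nf2 difference -0.24 ± 0.14 (limma adjusted p = 0.276) without that array. With replicate 2 left out, Tead1, Lats1 and Ajuba were higher in both remaining p53 tumours than in any normal sample, where 20.7% of all genes were, and Tead3 was lower, where 18.3% were. Across all 11 tumours other than p53 replicate 2, Tead1 was the 1 gene of the 10 above every normal sample, where 6.62% of all genes were, and 0 were below, where 7.69% were.

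**Figure D2:**
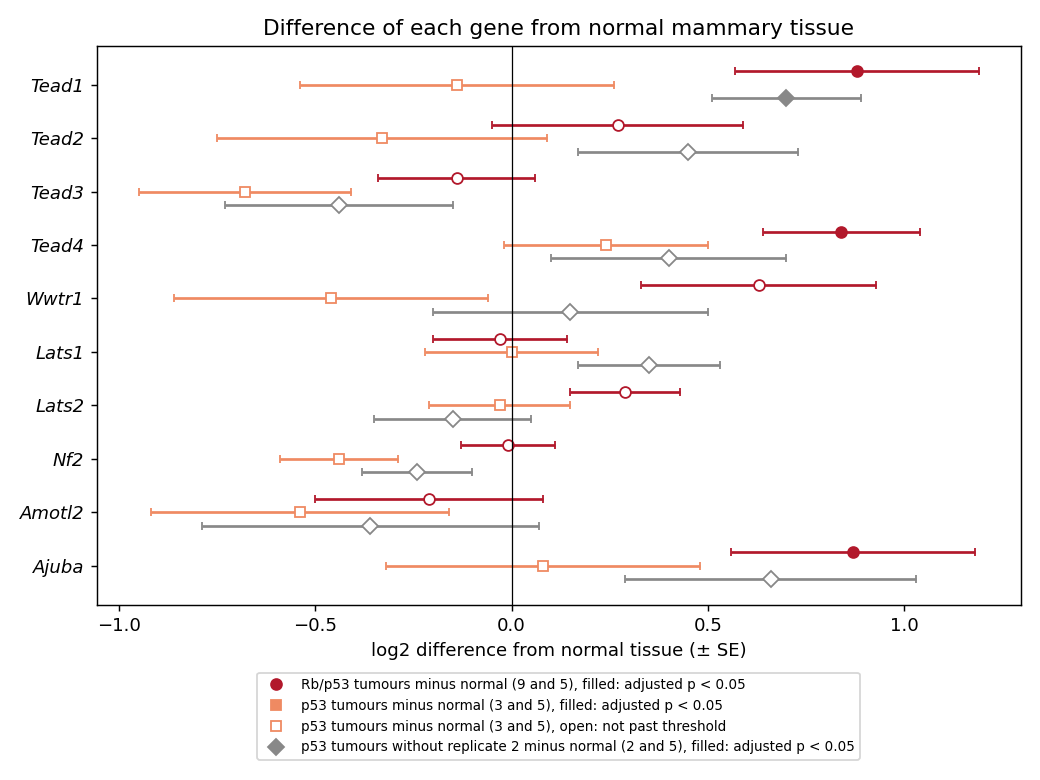
Log2 difference from normal tissue ± SE (horizontal axis) of each of the 10 genes, for Rb/p53 tumours (circles), for p53 tumours (squares) and for p53 tumours without replicate 2 (diamonds), with filled points past an adjusted p of 0.05. All 3 use the same 5 normal samples, and Tead1 moves to 0.70 from the other side of 0 when p53 replicate 2 is left out.

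The study also allows Rb/p53 tumours to be set against p53 tumours. Here 0 of the 10 genes passed, and limma called 1 of 19938 genes in all (0.00502%), with 4117 at an unadjusted p below 0.05. Of the 10 genes, 9 had a higher mean in Rb/p53 tumours, and 8 did without p53 replicate 2, counts that were not made over all genes. The median difference of the 10 genes was 0.56 with all arrays and 0.22 without that array, against -0.03 and 0.00 over all genes. With all arrays Lats1 was the exception, with a difference of -0.03 ± 0.23. Wwtr1, Tead1 and Nf2 had an unadjusted limma p below 0.05. The widest differences were 1.09 ± 0.41 in Wwtr1 (limma adjusted p = 0.197) and 1.02 ± 0.41 in Tead1 (limma adjusted p = 0.212), and Nf2 had 0.43 ± 0.15 (limma adjusted p = 0.183). When p53 replicate 2 was left out, 0 of the 10 passed, where 0.01% of all genes did, and these differences were 0.49 in Wwtr1, 0.19 in Tead1 and 0.24 in Nf2, and that of Tead2 turned to -0.18, against 0.59 with all arrays. The groups overlapped in each of the 10 genes, while 1.67% of all genes were higher and 1.47% lower in Rb/p53 tumours without overlap. The doubt over the label of p53 replicate 3 also matters here. Without that array Nf2 had a difference of 0.60 and passed, as it did with the array counted among Rb/p53 tumours, and the number of genes called was 1358 and 2044 in these fits.

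Within the Rb/p53 tumours, the way of delivering Cre and transplantation were compared. Between the 2 Ad-Cre and the 5 MMTV-Cre transplants, 0 of the 10 genes passed, where limma called 0.00502% of all genes and 427 genes had an unadjusted p below 0.05. The differences lay between -0.24 in Tead3 and 0.28 in Lats1. Between the 5 MMTV-Cre transplants and the 2 MMTV-Cre tumours not labelled as transplants, 0 of the 10 passed, where 0.0251% of all genes did and 752 genes had an unadjusted p below 0.05. Ajuba read 8.77, 8.39, 9.04, 8.99 and 9.84 in the transplants, against 10.31 and 9.60 in the tumours not labelled as transplants. The difference of -0.95 ± 0.49 in Ajuba was the widest of the 10 (limma adjusted p = 0.999), and transplant replicate 5 lay between the tumours not labelled as transplants. Amotl2 had a difference of -0.64 ± 0.49 and Wwtr1 one of 0.37 ± 0.55, each with an adjusted limma p of 0.999. One side of each of these comparisons held 2 tumours.

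Next, each gene was set against Yap1, which encodes YAP, over the 12 tumours. Yap1 did not form a continuous range. Its level was 8.08 in p53 replicate 2, lay between 10.11 and 10.75 in 8 tumours, was 12.15 in Ad-Cre replicate 1, and was 13.46 and 13.51 in MMTV-Cre transplant replicate 5 and MMTV-Cre replicate 1. Normal tissue read 10.21, 10.44, 10.30, 10.02 and 10.04. Gaps of 2.03, 1.41 and 1.31 log2 units part these clusters, so no correlation over all 12 tumours is given, and a slope over them rests on the 4 tumours outside the cluster of 8. The clusters were read from Yap1 itself and no test compares them.

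The 3 tumours highest in Yap1 were also the 3 highest in Amotl2. The share of all genes highest in these same 3 tumours was not counted, so no trait of Amotl2 is read from this. MMTV-Cre replicate 1 had an Amotl2 level of 10.45, MMTV-Cre transplant replicate 5 of 10.10 and Ad-Cre replicate 1 of 9.63, while the other 9 tumours lay between 8.37 and 9.20. The slope of Amotl2 on Yap1 was 0.36 ± 0.06 log2 units per log2 unit of Yap1 (limma adjusted p = 0.0602). Over all genes, 7 of 19937 passed (0.0351%), and 2829 had an unadjusted p below 0.05. None of the 10 was among the 7. Over the 11 tumours other than p53 replicate 2 the Amotl2 slope was 0.43 ± 0.06 and passed (limma adjusted p = 0.0307), where 0.0752% of all genes did. In the 9 Rb/p53 tumours it was 0.44 ± 0.07 (limma adjusted p = 0.0985), where 0.0401% of all genes passed.

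Ajuba had a slope of 0.41 ± 0.08 (limma adjusted p = 0.184). Its highest levels were 10.31 in MMTV-Cre replicate 1 and 9.84 in MMTV-Cre transplant replicate 5, the pair highest in Yap1, while Ad-Cre replicate 1 read 8.78, within the range of the other tumours. The Ajuba slope was 0.30 ± 0.09 without p53 replicate 2 (limma adjusted p = 0.661). Lats2, listed with Amotl2 and Ajuba among the targets, was also highest in those 2 tumours, at 10.38 and 9.98, but its slope was 0.09 ± 0.06. Tead3, which is not on the target list, was highest in the same 2 tumours, at 9.53 and 9.10. The share of all genes highest in these 2 tumours was not counted. In Ad-Cre replicate 1 Lats2 read 9.32, the lowest of the Rb/p53 tumours.

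The slopes of the TEAD factors depended on p53 replicate 2. Tead2 had a slope of 0.32 ± 0.09 over the 12 tumours (limma adjusted p = 0.298) and 0.13 ± 0.06 without that array. Tead1 had 0.27 ± 0.13 over the 12 and -0.03 ± 0.06 without it. Tead3 kept more of its slope, with 0.22 ± 0.07 over the 12 and 0.16 ± 0.09 without the array, and Tead4 had 0.06 ± 0.09 and -0.05 ± 0.11. Wwtr1, the gene of the other co-activator, had a slope of 0.11 ± 0.15 over the 12 tumours. That slope was -0.19 ± 0.11 without p53 replicate 2 and -0.24 ± 0.10 in the 9 Rb/p53 tumours (limma adjusted p = 0.797). The highest Wwtr1 level, 12.21, was in the Rb/p53 tumour with the lowest Yap1, MMTV-Cre transplant replicate 2, and the lowest of the Rb/p53 tumours, 10.42, was in transplant replicate 5. Nf2 had a slope of 0.14 ± 0.04 over the 12 tumours and 0.08 ± 0.04 without p53 replicate 2, and Lats1 had 0.03 ± 0.07 and -0.07 ± 0.07.

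**Figure D3:**
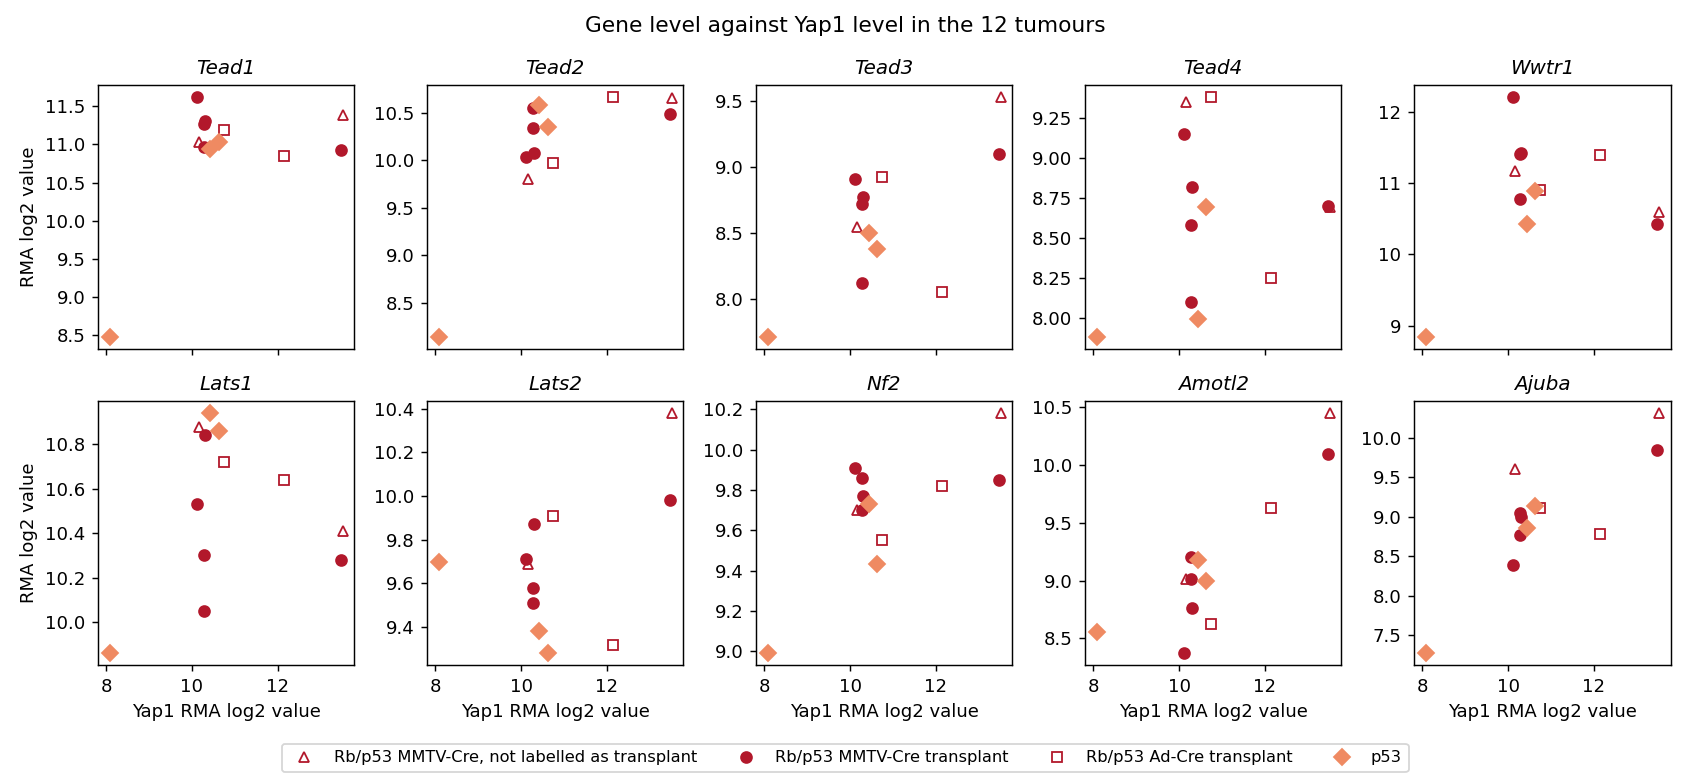
RMA log2 value of each of the 10 genes (vertical axis) against that of Yap1 (horizontal axis) in the 12 tumours, each point 1 tumour, marked by genotype, Cre and transplant label. Amotl2 is highest in the 3 tumours with Yap1 at 12.15 or above, a pattern that was not counted over all genes. The array of p53 replicate 2 lies alone at a Yap1 level of 8.08.

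Within the 8 tumours at a Yap1 level of 10.11 to 10.75, a range of less than 1 log2 unit, none of 19937 genes passed an exact permutation test of Pearson's r after adjustment over all genes, and 1446 had an unadjusted p below 0.05. Nf2 had the strongest relation of the 10, with r = -0.82 (exact permutation p = 0.0155, adjusted 0.618) and Spearman's rho = -0.62 (exact permutation p = 0.115). Its r was -0.40 without the 2 tumours farthest from the median Yap1, so it rests on those tumours. Wwtr1 had r = -0.58 (exact permutation p = 0.133, adjusted 0.747) and rho = -0.48 (exact permutation p = 0.243), and r = -0.79 without the 2 farthest tumours. Amotl2 had r = 0.06 (exact permutation p = 0.898) and Ajuba r = 0.22 (exact permutation p = 0.595) in these 8 tumours. The values rest on few tumours, since without the 2 farthest r was 0.66 for Amotl2, 0.02 for Ajuba, 0.76 for Tead2 against 0.15 with them, and -0.83 for Tead4 against 0.03.

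The 10 genes belong to a wider list of 51 Hippo pathway components, of which 46 were measured. In Rb/p53 tumours against normal tissue, 9 of the 46 rose, 3 fell and 34 did not pass, where 14.2% of all genes were called higher and 13.4% lower, with a median log2 difference of 0.17, against 0.03 over all genes. Beside Tead1, Tead4 and Ajuba, Amot, the founding angiomotin, rose by 0.97 ± 0.30 (limma adjusted p = 0.0227). Pdlim7, a LIM-domain protein, rose by 0.86 ± 0.22 (limma adjusted p = 0.00709). Wwc1, which encodes the merlin partner KIBRA, averaged 7.76 ± 0.37 in Rb/p53 tumours (SD, n = 9) and 8.56 ± 0.23 in normal tissue (SD, n = 5), a difference of -0.80 ± 0.19 (limma adjusted p = 0.00403). The other genes that fell were Tnik, a kinase, with -0.63 ± 0.20, and Vgll4, which competes with YAP for TEAD factors, with -0.28 ± 0.09. Leaving out p53 replicate 2, 12 of the 46 rose and 5 fell, where 18.4% of all genes were called higher and 15.3% lower.

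In p53 tumours against the same normal samples, 5 of the 46 components rose and 5 fell, where 8.34% of all genes were called higher and 12.1% lower, with a median of -0.02, against 0.09 over all genes. Vgll4 averaged 10.67 ± 0.08 in p53 tumours (SD, n = 3) and 11.56 ± 0.11 in normal tissue (SD, n = 5), a difference of -0.89 ± 0.12 (limma adjusted p = 6.44e-05). Fat1, an atypical cadherin, fell by 1.31 ± 0.36 in p53 tumours on the log2 scale, Wwc1 had a difference of -1.04 ± 0.24, and Amotl1, another angiomotin, one of -0.95 ± 0.29. Rassf1, a scaffold of the kinases above LATS, averaged 9.28 ± 0.46 in p53 tumours (SD, n = 3) and 8.35 ± 0.17 in normal tissue (SD, n = 5), a difference of 0.93 that passed (limma adjusted p = 0.000536). Rassf5, of the same family, also had a difference of 0.93. With p53 replicate 2 left out, 6 of the 46 rose and 2 fell, where 10.4% of all genes were called higher and 10.8% lower, and the median turned to 0.17, against 0.04 over all genes. Vgll4 and Wwc1 were the 2 that fell in that fit. Fat1 (-0.81 ± 0.33, limma adjusted p = 0.0997), Amotl1 (-0.39 ± 0.19, limma adjusted p = 0.163) and Rassf5 (0.49 ± 0.22, limma adjusted p = 0.147) no longer passed. In Rb/p53 tumours against p53 tumours 0 of the 46 passed by limma, with a median of 0.30, against -0.03 over all genes. Without p53 replicate 2 that median was 0.04, against 0.00 over all genes.

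All 23 known YAP and TAZ target genes of a second list were measured, and 3 of them (Lats2, Amotl2 and Ajuba) are among the 10 genes. In Rb/p53 tumours 11 of the 23 rose against normal tissue, 1 fell and 11 did not pass, where 14.2% of all genes were called higher and 13.4% lower, with a median log2 difference of 0.57, against 0.03 over all genes. Ankrd1, a nuclear ankyrin-repeat protein, ranged from 8.21 to 11.62 in Rb/p53 tumours (median 10.67). In p53 tumours it read 10.23, 6.87 and 11.95, in replicate order. The value of p53 replicate 2 lay only 0.08 above the 25th percentile of all probe sets on its array. Ankrd1 averaged 10.25 ± 1.24 in Rb/p53 tumours (SD, n = 9) and 6.70 ± 0.09 in normal tissue (SD, n = 5), a difference of 3.55 ± 0.69 (limma adjusted p = 0.00102). In normal tissue its values lay only 0.16 to 0.38 above the 25th percentile of all probe sets on their array, near the low end, so its difference may be understated. The genes next in size were Nt5e, the ectoenzyme CD73, with 2.20 ± 0.57, Igfbp3, which binds insulin-like growth factors, with 1.90 ± 0.27, and Myof, a membrane protein, with 1.55 ± 0.10. Foxf2, a forkhead transcription factor, rose by 1.45 ± 0.49 (limma adjusted p = 0.0336), with normal values 0.11 to 0.41 above that percentile. Ccn2 and Ccn1, secreted matrix proteins, rose by 1.30 ± 0.37 and 1.29 ± 0.35. Ccdc80, also secreted, averaged 11.67 ± 0.91 in Rb/p53 tumours (SD, n = 9) and 12.98 ± 0.06 in normal tissue (SD, n = 5), and fell (limma adjusted p = 0.0178).

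In p53 tumours, against the same normal samples, 2 of the 23 targets rose and 1 fell, where 8.34% of all genes were called higher and 12.1% lower, with a median of 0.08, against 0.09 over all genes. Myof averaged 11.91 ± 0.27 in p53 tumours (SD, n = 3) and 10.36 ± 0.09 in normal tissue (SD, n = 5), a difference of 1.55 ± 0.14 (limma adjusted p = 5.37e-07). Ankrd1 rose by 2.98 ± 0.91 and Ccdc80 had a difference of -1.91 ± 0.50. With p53 replicate 2 left out, 6 of the 23 rose and 0 fell, where 10.4% of all genes were called higher and 10.8% lower, with a median of 0.44, against 0.04 over all genes, and Ankrd1 had a difference of 4.39 ± 0.79. In Rb/p53 tumours against p53 tumours, 0 of the 23 passed by limma. On Yap1 over the 12 tumours 0 of the 23 had a slope past the threshold, with a median slope of 0.20, against -0.01 over all genes. With p53 replicate 2 left out, the median slope was 0.13, against 0.00 over all genes, and the 1 gene of the 23 that passed was Amotl2.

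**Figure D4:**
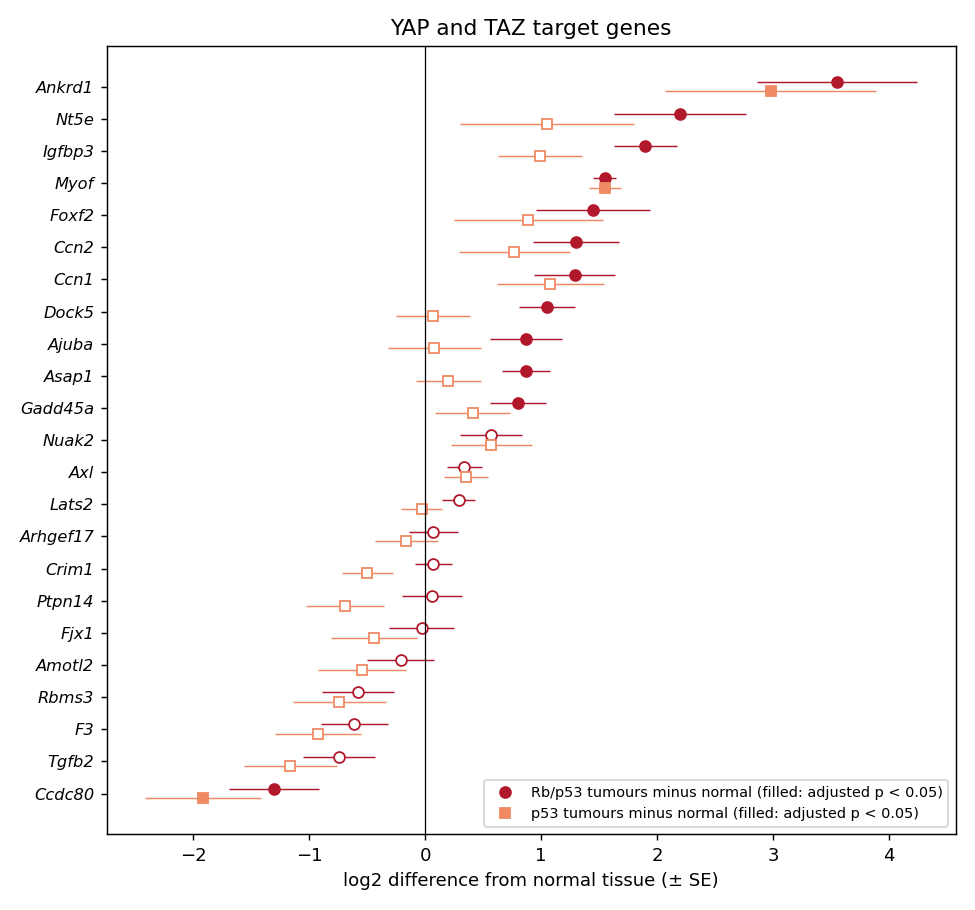
Log2 difference from normal tissue ± SE (horizontal axis) of the 23 YAP and TAZ target genes in Rb/p53 tumours (circles) and p53 tumours (squares), with filled points past an adjusted p of 0.05. In Rb/p53 tumours 11 genes rose, Ankrd1 at the top with 3.55, and Ccdc80 fell.

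The genes whose levels ran most like those of the TEAD factors and Wwtr1 over the 12 tumours changed when p53 replicate 2 was left out. For Tead1 they were Ryk (Pearson's r = 0.98) and Psmc4 (r = 0.97) over the 12, and Ppm1j (r = 0.93) and Nipa1 (r = 0.92) over 11. For Tead2 they were Rcn1 (r = 0.98) and Dzip3 (r = 0.96) over the 12, and Kcnh7 (r = 0.92) and Skint7 (r = 0.91) over 11. For Tead3 they were Slc39a7 (r = 0.93) and Wdr24 (r = 0.89) over the 12, and Lats2 (r = 0.90) and Slc39a7 (r = 0.89) over 11, so that a Hippo kinase gene came first in the smaller set. For Tead4 they were Hmg20b and Cfap69 (both r = 0.91) over the 12, and Septin10 (r = 0.92) and Hmg20b (r = 0.90) over 11. For Wwtr1 they were Ift80 and Tcim (both r = 0.97) over the 12, and Tapt1 (r = 0.96) and Nudt9 (r = 0.95) over 11. Slc39a7 and Hmg20b were thus the pair of genes named with and without that array. These are the highest of a great many correlations over few tumours and are given as a description.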

How the data were processed

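RNA was measured on 17 Affymetrix arrays. The deposited log2 values for 35556 probe sets were made by RMA (background correction, normalisation, summary) in Partek 5.6, per the submitters' processing notes; the build is not given in the sources used here. There were 0 unmapped array columns. Symbols came from GEO's platform annotation: 1 symbol was paired with 21789 probe sets, several with 1621 and none here with 12146, which gave 19938 tested genes. Coordinates are those of RefSeq (GRCm38.p6).

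Differences and slopes were fitted with limma 3.58.1 in R 4.3.3 (lmFit, eBayes) and adjusted by the Benjamini-Hochberg method, threshold 0.05. Comparisons with normal tissue used all 17 arrays as 3 groups, Rb/p53 against p53 the 12 tumours as 2, and those within Rb/p53 the 12 as 4 groups. Correlations used scipy 1.17.1. The steps were tested on simulated data. The number of arrays limits the precision.

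The 10 genes and lists were chosen with earlier results of these data known. Named from the lists were up to 6 genes with the largest change past the threshold against normal tissue. Tnik, Vgll4, Ccn1, Ccn2 and Ccdc80 in Rb/p53 tumours were, where outside that rule, chosen after their values were seen. Likeness excluded predicted genes, clones, small RNAs and receptor segments. Alternatives were array weights, a low filter (25th percentile), quantile and cyclic loess normalisation, mean of probe sets, other sample sets and single arrays left out.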

Additional observations from a re-analysis of the deposited data

Results flagged for a closer look

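Among 33 gene and group pairs examined for a sample far from the others of its group, 1 was found. Chance gives about 1 in 20 such pairs, so 1 find among 33 is no more than chance gives. Yap1 in MMTV-Cre transplant replicate 5 was 13.46, while the other 4 MMTV-Cre transplants lay between 10.11 and 10.30, a gap of 0.95 of the range of the group. The Amotl2 and Ajuba levels of that tumour, 10.10 and 9.84, were also the highest of these 5 transplants, but did not stand as far from the others.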

How the results depend on the processing

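No paired analysis was possible because the labels pair no samples across groups and the replicate numbers only name samples. Tead4 kept its call in Rb/p53 tumours under all alternatives (adjusted limma p 0.00137 to 0.0152). Tead1 lost it under cyclic loess (0.70), the mean of probe sets (0.84), MMTV-Cre Rb/p53 tumours alone (0.93) and the second probe set (0.81), and Ajuba with MMTV-Cre Rb/p53 tumours alone (0.94). Both lost it without any 1 normal array, Ad-Cre replicate 2, MMTV-Cre replicate 1 or transplant replicate 3 or 4, Tead1 also without transplant replicate 2, and Ajuba without MMTV-Cre replicate 2 or transplant replicate 5 (adjusted limma p up to 0.0975). Wwtr1 gained one with array weights (0.58) and with only the arrays compared. The second probe set and the likeness over 11 tumours were chosen after seeing the data. The causes were not tested.

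Of the 10 genes, the number called in Rb/p53 tumours against normal tissue was 3, and 1 with MMTV-Cre tumours alone. In p53 tumours it was 0, and 1 under cyclic loess (Nf2), 1 with only the arrays compared (Tead3) and 2 with p53 replicate 3 moved to Rb/p53. It was 1 with that move in Rb/p53 against p53 (Nf2) and 1 with array weights for slopes on Yap1 (Amotl2). Genes called in Rb/p53 against p53 were 1, and 3 with array weights, 2 each with the low filter, quantile and cyclic loess, and 2044 with p53 replicate 3 moved. Genes called between Ad-Cre and MMTV-Cre transplants were 1, with 4 under cyclic loess and 0 with only the arrays compared. Between transplants and other MMTV-Cre tumours they were 5, with 9 under the mean of probe sets and 3 after the move. Slopes called were 7, with 32 under array weights and 4 with genotype as a term. Quantile normalisation raised the share of higher calls in p53 tumours to 52.8%, against 40.8%, and cyclic loess lowered it in Rb/p53 tumours to 42.6%, against 51.4%.

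Leaving out 1 array at a time, members called ranged from 1 to 4 and genes called from 4407 to 6725 in Rb/p53 against normal, from 0 to 2 and 3226 to 5355 in p53 against normal, from 0 to 1 and 1 to 1358 in Rb/p53 against p53, at 0 and from 0 to 26 in Ad-Cre against MMTV-Cre, at 0 and from 0 to 100 for transplants, and from 0 to 1 and 2 to 15 for slopes. The extremes came without p53 replicate 3 (1358), Ad-Cre replicate 1 (26), MMTV-Cre replicate 1 (100, and 2 slopes) and p53 replicate 2 (15). In p53 tumours, Tead3 and Nf2 were called without MMTV-Cre replicate 1, and Nf2 without Ad-Cre replicate 2 or p53 replicate 3. The Amotl2 slope was also called without Ad-Cre replicate 2 (0.36). Values that changed sign did so as follows, none of them past the threshold unless said above. In Rb/p53 against normal, Lats1 was 0.01 with p53 replicate 3 moved (-0.08 to 0.03 with 1 array out), and Nf2 0.01 with array weights and 0.03 with MMTV-Cre alone (-0.05 to 0.03). In p53 against normal, array weights gave Tead1 0.60, Tead2 0.33 and Wwtr1 0.11, the second probe set Tead1 0.06, quantile Lats2 0.05, loess Lats2 0.00, and the move Lats1 -0.19, Lats2 0.00 and Ajuba -0.14. With 1 array out, Tead1 ran from -0.58 to 0.70, Tead2 -0.78 to 0.45, Tead4 -0.01 to 0.40, Wwtr1 -0.88 to 0.15, Lats1 -0.19 to 0.35, Lats2 -0.15 to 0.05 and Ajuba -0.28 to 0.66. In Rb/p53 against p53, the move gave Lats1 0.20, and with 1 array out Lats1 ran from -0.38 to 0.16 and Tead2 -0.18 to 1.04. In Ad-Cre against MMTV-Cre, Tead2 was -0.04 with quantile and -0.02 with loess and Amotl2 -0.03 with quantile. There Tead2 ran from -0.33 to 0.38, Tead3 -0.67 to 0.19, Tead4 -0.42 to 0.71, Wwtr1 -0.35 to 0.15, Lats2 -0.41 to 0.18, Nf2 -0.27 to 0.01, Amotl2 -0.46 to 0.54 and Ajuba -0.23 to 0.15. For transplants, Tead1 was 0.00 with array weights and Tead2 -0.05 after the move. There Tead1 ran from -0.18 to 0.19, Tead2 -0.36 to 0.50, Tead3 -0.81 to 0.18, Lats2 -0.65 to 0.04, Nf2 -0.36 to 0.12 and Amotl2 -1.36 to 0.07. For slopes, array weights gave Tead4 0.00, Wwtr1 -0.17 and Lats1 -0.07, genotype as a term Tead4 -0.03 and Wwtr1 -0.04, quantile and loess Lats1 -0.02 and -0.03, and the 9 Rb/p53 tumours Tead1 -0.04, Tead4 -0.08, Wwtr1 -0.24 and Lats1 -0.05. With 1 array out, Tead1 ran from -0.03 to 0.38, Tead4 -0.05 to 0.08, Wwtr1 -0.19 to 0.23 and Lats1 -0.07 to 0.08. All values of the 10 genes lay above the 25th percentile of their array. The smallest margins were 0.47 in Ajuba and 0.91 in Tead3, both in p53 replicate 2. Whether low signal limits these values was not tested.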
